A study of Mus musculus with 6 samples.

Results

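The comparison described here sets pachytene cells of mice in which MAPS was put back on a knockout background against pachytene cells of wild-type mice. It asks how far the transcriptome returned to the wild-type level and what remained different. Cells were purified from testis by STA-PUT, a separation by sedimentation at unit gravity, at about postnatal day 80, with 3 mice of identical genotype per group and 2 independent experiments. The wild-type group (WT) has 2 libraries. The group called EE_KO here, titled MAPS EE-KO and given as MAPS overexpression in a KO background, also has 2 libraries and carries the same MAPS deletion as the knockout. The labels do not say what EE stands for, which promoter drives the added MAPS, or whether a library pools the mice. The MAPS KO group (KO), with 2 libraries, entered the fit for its share of the replicate spread, and its levels are given beside the others. Genes were members if their mean over the 2 WT and 2 EE_KO libraries was at least 1 FPKM (fragments scaled by transcript length and library size). This took 14851 of 54532 genes, of which 11026 are protein coding, 1011 are lincRNA genes and 856 are processed pseudogenes. Testing used 14383 of them, because 461 short RNA genes and 7 lower entries of repeated symbols were left out. At the edge of the rule, Ypel4 lay just inside with a 4-library mean of 1.0005 FPKM and Tfdp2 just outside with 0.999 FPKM. A further 320 tested genes had a WT mean under 1 FPKM and passed through EE_KO alone, and 291 had an EE_KO mean under 1 FPKM and passed through WT alone.

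Pachytene is the long stage of meiotic prophase in which paired homologous chromosomes recombine. In males the X and Y are gathered in a condensed domain, the sex body, where their genes are silenced (meiotic sex chromosome inactivation, MSCI). MAPS is a protein of male pachytene cells, and the study followed the MSCI status of pachytene cells after its loss. Mid-pachytene is also when a large programme of germ cell genes is switched on, including those later needed for metabolism and motility of sperm.

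The 4 libraries of the comparison held 15531047 to 16565238 reads on genes, as recovered from the deposited values. The gene of MAPS, 1700102P08Rik (chromosome 9, 108392805 to 108410934, plus strand, GRCm38), was measured at 157.0 and 150.2 FPKM in the WT libraries and at 108.6 and 82.2 FPKM in the EE_KO libraries. It was at 7.97 and 10.1 FPKM in the KO libraries. Both EE_KO libraries thus lay below both WT libraries and above both KO libraries, at 62.1% of the WT mean. The difference from WT was -0.70 ± 0.16 (SE) on the log2(FPKM + 1) scale, with an unadjusted p of 0.00305 and an adjusted p of 0.252 (limma), so it did not pass the threshold. Of 64 tested genes within 1 Mb of the MAPS gene none was called, beside 0.0556% of all genes tested. Their differences ran from -0.40 to 0.49 with a median of -0.05.

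Across the 14383 genes the distances of EE_KO to WT libraries were near those of replicates, and larger from WT replicate 1 than from WT replicate 2. The median absolute difference between the WT libraries was 0.173 on the log2(FPKM + 1) scale, and between the EE_KO libraries it was 0.146. The 4 pairs of a WT and an EE_KO library gave 0.152 to 0.204, with a mean of 0.177. Those with WT replicate 1 (0.204 and 0.192) were above both replicate pairs. Those with WT replicate 2 (0.159 and 0.152) lay between the replicate pairs. Pairs of a WT and a KO library gave 1.32 to 1.37. Between 90.6% and 94.0% of genes were within 1.5-fold in the WT to EE_KO pairs, beside 92.0% in the WT pair, 92.6% in the EE_KO pair and 21.6% to 23.3% in the WT to KO pairs. These distances are a description, because genes are not replicates and 2 libraries against 2 cannot give an exact two-sided permutation p below 0.333.

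**Figure D1:**
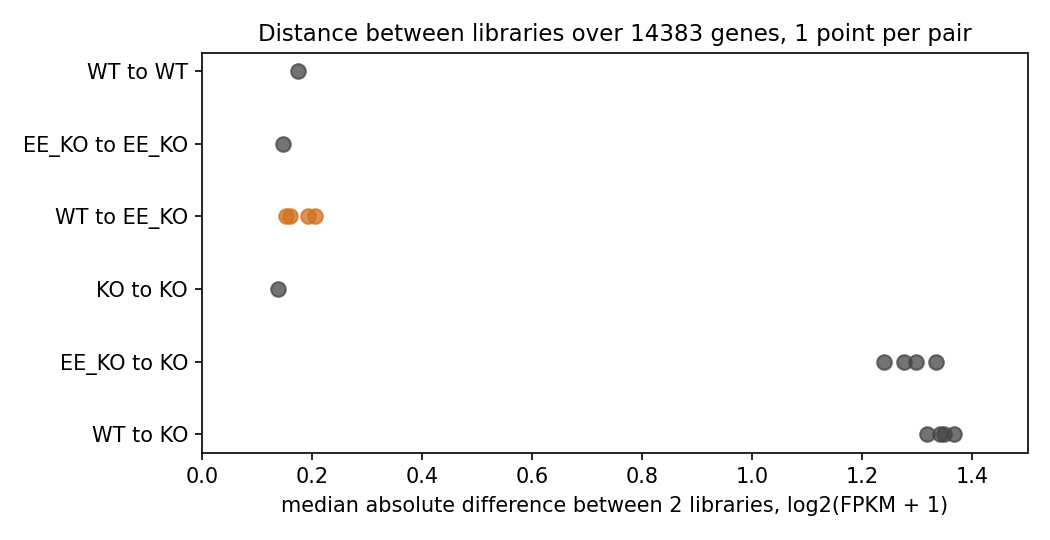
Median absolute difference over the genes tested, on the log2(FPKM + 1) scale (x axis), for each pair of libraries, grouped by kind of pair (y axis), with 1 point per pair. The WT to EE_KO pairs, 0.152 to 0.204, lie above the EE_KO pair at 0.146 and on both sides of the WT pair at 0.173. The WT to KO pairs lie at 1.32 to 1.37.

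The 2 EE_KO libraries stood apart from each other most on chromosome 13, in genes that were singled out after their values were seen. At 2-fold or more 194 genes differed between them, of which 38 were among the 548 genes tested on chromosome 13. In the WT pair 178 genes differed by 2-fold or more and 7 were on that chromosome. Of 382 tested X genes, 19 differed by 2-fold or more in the EE_KO pair and 14 in the WT pair. At 4-fold or more the numbers were 23 genes with 9 on chromosome 13 in the EE_KO pair, and 9 genes with 0 on it in the WT pair. Mrs2 (chromosome 13, 24987483 to 25020379, minus strand), which encodes the magnesium channel of the inner mitochondrial membrane, was at 17.0 and 15.2 FPKM in WT and 14.7 FPKM in EE_KO replicate 1, but at 0.403 FPKM in EE_KO replicate 2. KO had 8.36 and 10.1 FPKM. The lincRNA genes Gm26715 and Gm26806 were also low in EE_KO replicate 2, at 0.244 and 0.219 FPKM beside 23.0 and 7.84 FPKM in EE_KO replicate 1. Gm48168, a lincRNA gene of the same chromosome, went the other way, at 113 FPKM in EE_KO replicate 2 and at 0.545 FPKM or less in each of the other 5 libraries. For these genes a mean over both EE_KO libraries describes neither library. None of the 8 genes called between EE_KO and WT is on chromosome 13. Without EE_KO replicate 1 17 genes were called, 8 of them on chromosome 13, and without EE_KO replicate 2 3 genes were called, none of them there. Among those 3, Gt(ROSA)26Sor, the non-coding transcript of the Rosa26 locus on chromosome 6, was at 14.4 and 13.7 FPKM in WT, 2.26 FPKM in EE_KO replicate 1, 9.07 FPKM in EE_KO replicate 2, and 3.02 and 3.84 FPKM in KO. The cause of these differences between the EE_KO libraries was not tested.

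The median gene stood at 99.3% of its WT level, and the middle 50% of genes stood between 89.0% and 110.8%. The estimate was within 1.5-fold of WT for 96.2% of genes and within 2-fold for 99.4%, leaving 29 genes at least 2-fold higher and 61 at least 2-fold lower. A missed threshold does not show that levels are equal, so the limma 95% interval was read for each gene. For 13415 genes (93.3%) the whole interval lay inside 2-fold of WT, and for 63.4% it lay inside 1.5-fold. Of the other 968 genes, 8 had an interval wholly beyond 2-fold and the rest had one that crossed it. The share inside 2-fold depends on the scale, and was 75.4% with a pseudocount of 0.1 and 75.3% with voom.

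**Figure D2:**
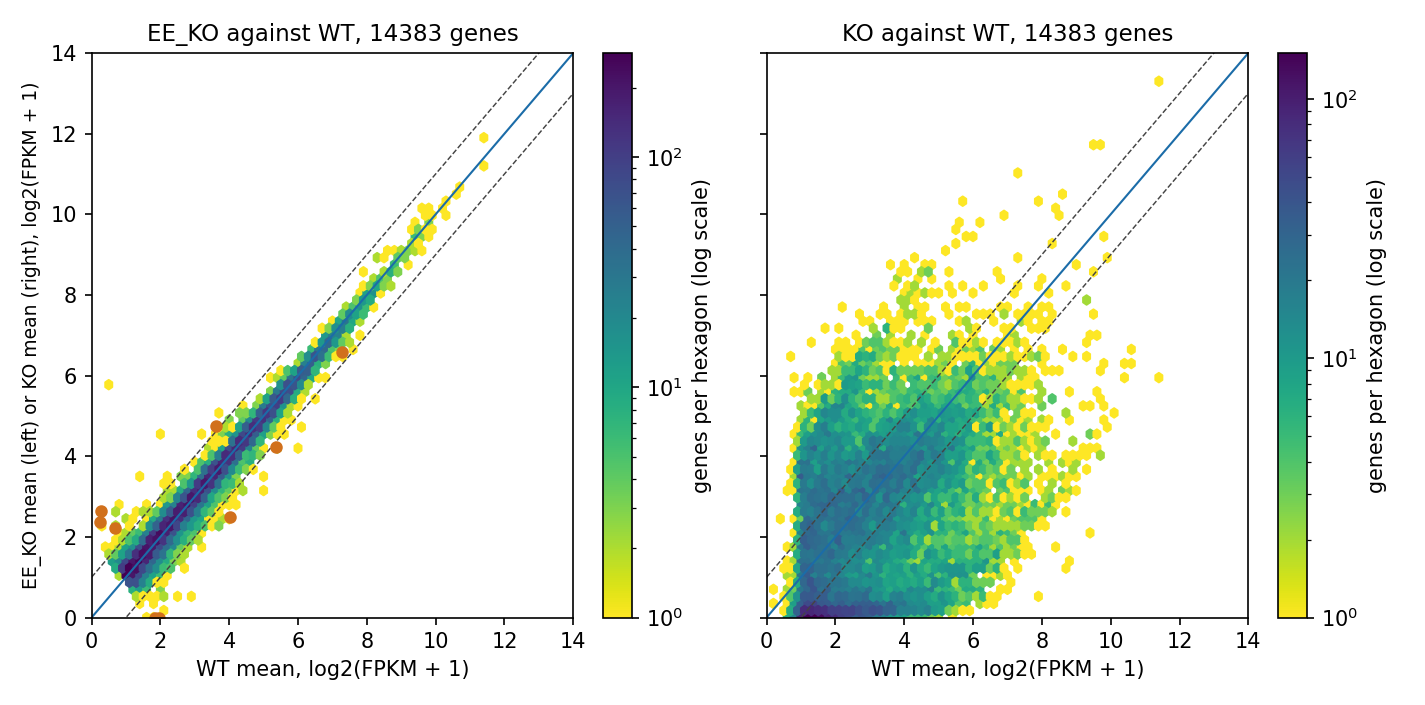
Mean level per gene in EE_KO (left) and KO (right) on the y axis against the WT mean on the x axis, both as log2(FPKM + 1). Colour gives the number of genes per hexagon on a log scale, the solid line is equality, dashed lines mark 2-fold, and orange points are the MAPS gene and the 8 called genes. In EE_KO 99.4% of genes have an estimate within 2-fold of WT.

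At an adjusted p below 0.05 (limma, Benjamini-Hochberg over all genes tested) 8 genes differed between EE_KO and WT, 0.0556% of those tested. Zfp990, Klb, Gm4864 and Nudc-ps1 rose (0.0278%), and Parvg, Tomm7, Gm14625 and Gm26897 fell (0.0278%). With so few calls over all genes, a list or region without a called gene says little about its return to WT. Without adjustment, p was below 0.05 for 1158 genes (8.05%), 358 higher (2.49%) and 800 lower (5.56%). The 2 EE_KO libraries did not overlap the 2 WT libraries for 5345 genes (37.2%), 2267 higher (15.8%) and 3078 lower (21.4%). No overlap together with 2-fold or more was met by 20 genes higher (0.139%) and 55 lower (0.382%). Of the 8 called genes, 3 had a WT mean under 1 FPKM and 2 an EE_KO mean under 1 FPKM, and 3 were above 1 FPKM in both groups. The calls rest on a spread estimated over all 3 groups. In a fit of the WT and EE_KO libraries alone no gene was called, with 1027 genes at an unadjusted p below 0.05 and a smallest adjusted p of 0.139 for Zfp990, while voom on recovered reads called 8. None was called without WT replicate 2 or without either KO library (1768, 1032 and 1028 genes at an unadjusted p below 0.05), and 17 were called without EE_KO replicate 1. No source says that libraries of a group came from separate mice, so p-values measure the spread between these libraries, which may be technical.

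**Figure D3:**
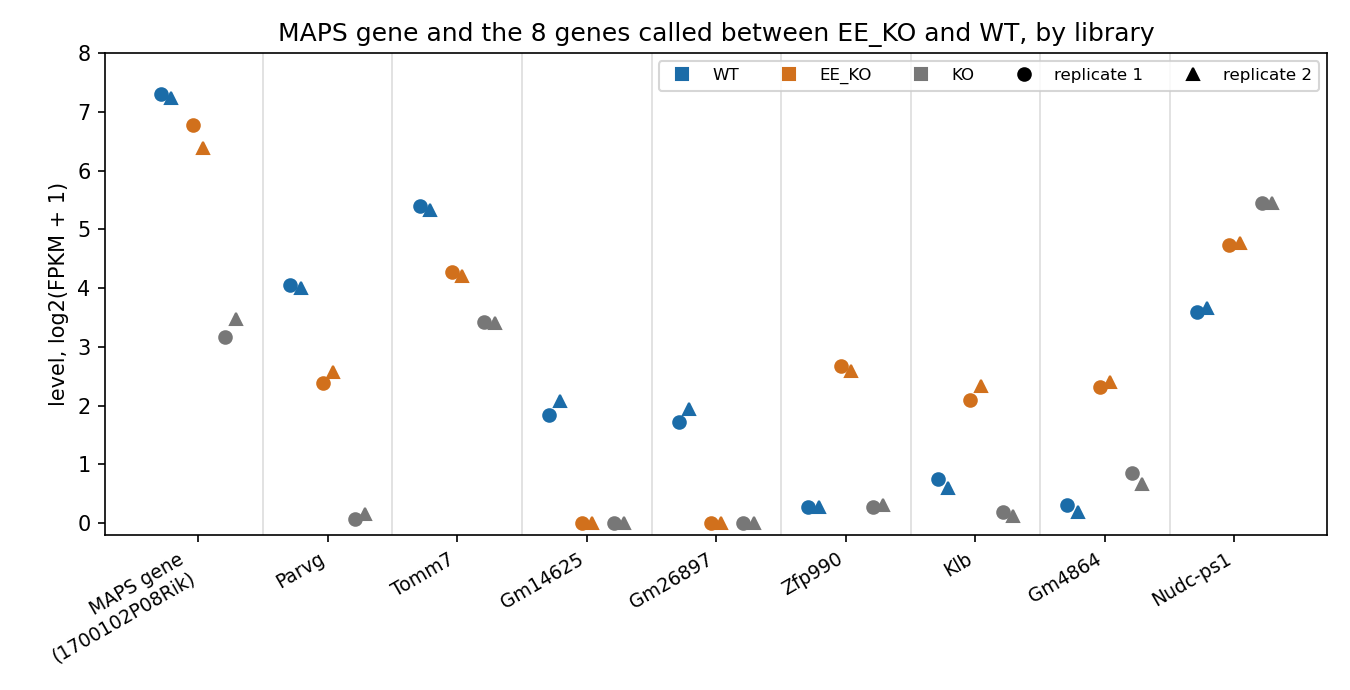
Level as log2(FPKM + 1) (y axis) of the MAPS gene and the 8 called genes (x axis) in each of the 6 libraries, with colour for the group and marker shape for the replicate number. In EE_KO, Parvg and Tomm7 lie between WT and KO, as does Nudc-ps1 from the other side, while Zfp990, Klb and Gm4864 lie above both WT and KO.

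Pseudogenes made up 3 of the 8 calls, and each has a close relative in sequence, so reads of the pair may be split between them by the authors' counting. The stretches below show how little separates the 2 processed pseudogenes from their parents. They are 60 bases of the GENCODE M21 transcripts, with the bases that differ in capitals. Nudc-ps1 has 1 difference from Nudc in this stretch, and Gm4864 has 6 from Hdac1.
Nudc-ps1: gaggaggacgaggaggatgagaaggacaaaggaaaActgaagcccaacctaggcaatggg
Nudc: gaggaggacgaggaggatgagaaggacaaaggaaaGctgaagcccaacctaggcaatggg
Gm4864: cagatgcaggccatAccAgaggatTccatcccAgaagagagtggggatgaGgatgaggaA
Hdac1: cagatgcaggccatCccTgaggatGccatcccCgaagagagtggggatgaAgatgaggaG

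Over the whole alignment Nudc-ps1 and Nudc share 99.1% of bases, and Gm4864 and Hdac1 share 94.6%. Nudc-ps1 (chromosome 8, 29286431 to 29286981) was at 11.02 and 11.63 FPKM in WT, 25.7 and 26.3 in EE_KO and 42.4 in both KO libraries. It rose by 1.13 ± 0.10 (SE; adjusted p = 0.0175, limma) and lay between WT and KO. Nudc-ps1 kept its call in 8 of 18 alternatives, and lost it in every fit that left out a library. Its parent Nudc, which encodes a dynein-associated protein of nuclear movement, was at 66.9 and 79.2 FPKM in WT and at 65.6 and 58.5 FPKM in EE_KO, below both WT libraries. In KO, Nudc was at 174 and 185 FPKM, above WT as Nudc-ps1 was. Gm4864, on chromosome 12, was at 0.244 and 0.136 FPKM in WT (5 and 3 reads) and at 3.97 and 4.30 FPKM in EE_KO (85 and 94 reads). The KO libraries had 0.80 and 0.591 FPKM, so the EE_KO level was outside the range of both other groups (2.11 ± 0.16, adjusted p = 0.0148, limma). Gm4864 passed the level filter through EE_KO alone. Hdac1, the histone deacetylase, was at 74.9 and 70.5 FPKM in WT and at 46.9 and 52.0 FPKM in EE_KO, a difference of -0.55 ± 0.13 with an adjusted p of 0.264 (limma). Gm10093, another copy with 94.6% of bases shared with Gm4864, went the other way from Hdac1, at 11.67 and 9.88 FPKM in WT and at 19.5 and 19.3 FPKM in EE_KO (0.80 ± 0.19, adjusted p = 0.264).

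Gm14625 is an unprocessed pseudogene of the X chromosome, related to Slxl1 with 99.1% of bases shared. It had 17 and 23 reads in WT and 0 in both EE_KO and both KO libraries. Against a floor of 3 reads per library it was at least 6.74-fold lower in EE_KO (adjusted p = 0.0175, limma). Its identical copy Gm16404 was at 0.458 and 0.988 FPKM in WT and at 0 and 0.143 FPKM in EE_KO. Gm14598, which shares 99.8% of its bases, was at 1.07 and 0.988 FPKM in WT and at 0.146 and 1.14 FPKM in EE_KO, with overlapping groups. A relative that shares 99.1% of its bases, Gm6660, was at 2.59 and 8.75 FPKM in WT and at 10.4 and 9.42 FPKM in EE_KO, where both libraries were above both WT libraries. Gm26897, a gene model of 93 bases on chromosome 5, passed the test on 3 and 4 reads in WT against 0 in both EE_KO libraries, with 1.18 as the ratio of the WT mean to the floor. It overlaps a lincRNA gene on the opposite strand, E130006D01Rik, and no source used here gives the strand of the reads, so reads of the 2 cannot be told apart. That call carries little depth. Both Gm14625 and Gm26897 passed the level filter through WT alone.

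Among protein-coding calls, Parvg and Tomm7 fell below WT but stayed above KO. Parvg (chromosome 15, 84324026 to 84342978, plus strand) encodes gamma-parvin, an actin-binding partner of integrin-linked kinase known mainly from blood cells. It was at 15.65 and 15.01 FPKM in WT, 4.20 and 4.97 FPKM in EE_KO, and 0.054 and 0.112 FPKM in KO. EE_KO reached 29.9% of the WT mean, a fall of 1.55 ± 0.14 on the log2 scale (SE; adjusted p = 0.0175, limma). Parvg kept its call in 8 of 18 alternatives, and lost it on TPM and in every fit that left out a library. Over the alternatives Parvg differed from WT by -1.72 to -1.45. Its neighbours Parvb and Rtl6 had differences of 0.03 and 0.26. Over 14 tested genes of the integrin-linked kinase, parvin and PINCH complex the median difference was 0.00, and Parvg was the only member called.

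Tomm7 (chromosome 5, 23838944 to 23844161, minus strand) encodes a small subunit of the TOM complex, the entry gate for proteins imported into mitochondria. Its levels were 41.0 and 39.1 FPKM in WT, 18.3 and 17.5 FPKM in EE_KO, and 9.70 and 9.62 FPKM in KO. Replicates were close and no groups overlapped, and the fall from WT was 1.12 ± 0.10 (SE; adjusted p = 0.0175, limma). The Tomm7 call was kept in 8 of 18 alternatives, and was lost on TPM and in every fit that left out a library. Its difference ran from -1.16 to -1.01 over the alternatives. Of 35 tested genes of the TOM, TIM and PAM import machinery none other was called. Without overlap 4 were higher and 15 lower, beside 15.8% and 21.4% of all genes tested, and the median difference was -0.06. Tomm22, the central TOM receptor, was at 175 and 155 FPKM in WT and at 144 and 150 FPKM in EE_KO.

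Zfp990 and Klb rose above WT and were also above KO. Zfp990 (chromosome 4, 145510759 to 145539188, plus strand) encodes a zinc finger protein of a family clustered on distal chromosome 4. It was at 0.204 and 0.208 FPKM in WT (10 and 11 reads), 0.207 and 0.247 FPKM in KO, and 5.388 and 5.004 FPKM in EE_KO (276 and 262 reads). The rise was 2.36 ± 0.15 (SE; adjusted p = 0.00849, limma), the smallest p of the comparison. Klb (chromosome 5, 65348314 to 65384007, plus strand) encodes beta-klotho, the co-receptor of FGF19 and FGF21. It was at 0.675 and 0.508 FPKM in WT, 0.147 and 0.0886 FPKM in KO, and 3.29 and 4.04 FPKM in EE_KO, a rise of 1.55 ± 0.17 (SE; adjusted p = 0.0432, limma). The Klb call was kept in 3 of 17 alternatives, and was lost with the replicate number as a block, on TPM, with smaller pseudocounts, with quantile normalization and in every fit that left out a library. Its neighbours Rfc1 and Rpl9 had differences of -0.17 and -0.36, and the 6 tested klotho, FGF receptor and ligand genes had a median of 0.20. Both genes passed the level filter through EE_KO alone.

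Just outside the threshold were 2 genes, both lower in EE_KO, each with an adjusted p of 0.0541 (limma). Epyc, which encodes the small proteoglycan epiphycan, was at 18.2 and 15.3 FPKM in WT, 5.84 and 6.55 FPKM in EE_KO, and 2.39 and 1.93 FPKM in KO. Abcg8, one of the paired half-transporters for sterols, was at 3.32 and 3.22 FPKM in WT, 0.765 and 0.642 FPKM in EE_KO, and 0.0148 and 0.0307 FPKM in KO. In both genes EE_KO lay between the other groups, with no overlap. Over 17 tested genes of sterol transport and cholesterol handling the median was 0.09.

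Further down the list, the largest uncalled differences without overlap included Sumo2 and Srm on the high side. Sumo2, a ubiquitin-like modifier, was at 8.76 and 7.73 FPKM in WT and at 23.68 and 20.98 FPKM in EE_KO (1.34 ± 0.29, adjusted p = 0.229, limma). Srm, spermidine synthase, was at 3.71 and 4.46 FPKM in WT and at 8.499 and 8.900 FPKM in EE_KO (0.94 ± 0.13, adjusted p = 0.139). On the same side Cxcl10, Cxcl1 and Ifitm3, which are chemokine and interferon-response genes, had differences of 1.11, 1.01 and 0.90. Hist1h2al, Rbpj-ps3, Fam205a3, Ube4bos3 and Snai3 made up the rest of the highest 10, at 0.84 to 1.38. All 10 had both EE_KO libraries above both WT libraries, as the choice required.

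On the low side, Rpl39l stood out by its level. It encodes a germ cell counterpart of the ribosomal protein RPL39, and was at 206 and 196 FPKM in WT, 107 and 90.4 FPKM in EE_KO, and 15.8 and 9.77 FPKM in KO (-1.03 ± 0.20, adjusted p = 0.196, limma). Slamf7, a receptor known from lymphocytes, was at 20.3 and 16.1 FPKM in WT and at 8.15 and 9.05 FPKM in EE_KO (-0.99 ± 0.16, adjusted p = 0.187). Syt5, a synaptotagmin, was at 5.25 and 4.58 FPKM in WT and at 1.78 and 1.63 FPKM in EE_KO (-1.13 ± 0.15, adjusted p = 0.115). For these 3 genes and for Tlx1os (-1.32), EE_KO was between WT and KO, whereas Rpl14-ps1 (-1.16) was above WT in KO, at 38.7 and 24.5 FPKM. Entpd4b (-1.42), Zfp993 (-1.27) and Speer4d (-1.01) completed the 10 lowest together with Abcg8 and Epyc.

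The pachytene programme was close to WT in level. Of 39 tested mid to late pachytene genes 16 were above and 23 below the WT mean. None was called, beside 0.0556% of all genes tested. Among them 3 were higher and 9 lower without overlap, beside 15.8% and 21.4% of all genes tested. The median level in EE_KO was 97.7% of WT, beside 4.30% in KO. Ldhc, the germ cell lactate dehydrogenase and the most abundant WT transcript, was at 2816 and 2500 FPKM in WT and at 2424 and 2618 FPKM in EE_KO, with overlapping groups. Ybx2, which binds stored germ cell mRNA, was at 1290 and 1293 FPKM in WT and at 1277 and 1307 FPKM in EE_KO. Of the 39 genes, 38 had their 95% interval inside 2-fold of WT. The MAPS gene itself is a member of this list and had its lowest difference, -0.70.

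Germ cell pathways that act at this stage gave similar values. The 29 piRNA pathway genes had a median at 97.9% of WT, and Piwil1, the pachytene PIWI protein, was at 300.8 and 300.7 FPKM in WT and at 290 and 336 FPKM in EE_KO. Germ cell glycolysis genes (28 tested) stood at 98.3% of WT, the 21 synaptonemal complex, HORMA and cohesin genes at 101%, and the 30 recombination genes at 104%. In the sex body and DNA damage response list 22 of 41 genes were above WT and 19 below. Of these 41, 11 were higher and 5 lower without overlap, beside 15.8% and 21.4% over all genes tested. None of these genes was called, beside 0.0556% of all genes tested. The remaining germ line lists also held no called gene: the median was 0.10 for 27 leptotene and zygotene genes, -0.01 for 15 spermatogonial genes, 0.06 for 18 retroelement defence genes and 0.19 for 4 Y-linked genes of the list. Over all 13 tested Y genes the median was -0.16, of the opposite sign.

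Genes for the meiotic divisions tended to lower values. Of 35 tested, 28 were below the WT mean and 7 above, and the median was -0.10 beside -0.01 over all genes. Without overlap 11 were lower and 2 higher, beside 21.4% and 15.8% of all genes tested. Aurkc, the kinase of the meiotic chromosomal passenger complex, was at 29.0 and 23.1 FPKM in WT, 15.6 and 14.7 FPKM in EE_KO, and 0.585 and 0.567 FPKM in KO (-0.74 ± 0.14, adjusted p = 0.196, limma). Pttg1, which encodes securin, had a difference of -0.47. Without WT replicate 1 the median of this list was 0.01, so its sign rests on that library.

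Spermatid genes differed between libraries of the same group as much as between groups. The summed level of 48 spermatid markers was 5142 and 7554 FPKM in WT and 5363 and 6781 FPKM in EE_KO, so the groups overlapped. The median over 46 tested genes was 0.06, and it ran from -0.24 to 0.39 when each WT or EE_KO library was left out. In bulk samples fewer cells of a type and less RNA per cell cannot be told apart. Tnp2, a transition protein of spermatid chromatin, was at 432 and 919 FPKM in WT and at 566 and 855 FPKM in EE_KO. Fabp9 and Pgam2 were the members lower at an unadjusted p below 0.05: Fabp9 was at 415 and 389 FPKM in WT and at 279 and 303 FPKM in EE_KO.

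On the X chromosome, 382 genes were tested and 1, Gm14625, was called, beside 0.0556% of all genes tested. The median difference was 0.11, beside -0.01 on the autosomes, with 56 genes (14.7%) higher and 23 (6.02%) lower without overlap. Over all genes tested those shares were 15.8% and 21.4%, so the higher share was near that of all genes and the lower share was below it. EE_KO replicate 1 was 0.24 above the WT mean and EE_KO replicate 2 was -0.03 from it, while WT replicate 2 was 0.19 above WT replicate 1. The shift thus had the size of the spread between libraries of a group. Of the 27 tested X genes known to be silenced by MSCI none was called, with a median of 0.10 (0.27 in EE_KO replicate 1 and -0.07 in EE_KO replicate 2). Uba1, the ubiquitin-activating enzyme, was at 10.03 and 15.73 FPKM in WT, 17.2 and 14.6 FPKM in EE_KO, and 62.8 and 59.6 FPKM in KO. X genes that are active in round spermatids (16 tested) had a median of 0.21, or -0.08 without WT replicate 1, and Akap4, a sperm tail scaffold, was at 79.3 and 140.2 FPKM in WT and at 102 and 147 FPKM in EE_KO. Autosomal retrogene copies of X genes, which stand in for silenced X parents, had a median of -0.17, with 10 of 12 below WT. Of the 12, 7 were lower and 1 higher without overlap, beside 21.4% and 15.8% of all genes tested. Cetn1, a centrin, was at 307 and 284 FPKM in WT and at 228 and 216 FPKM in EE_KO, and Gk2, a glycerol kinase, had a difference of -0.22.

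**Figure D4:**
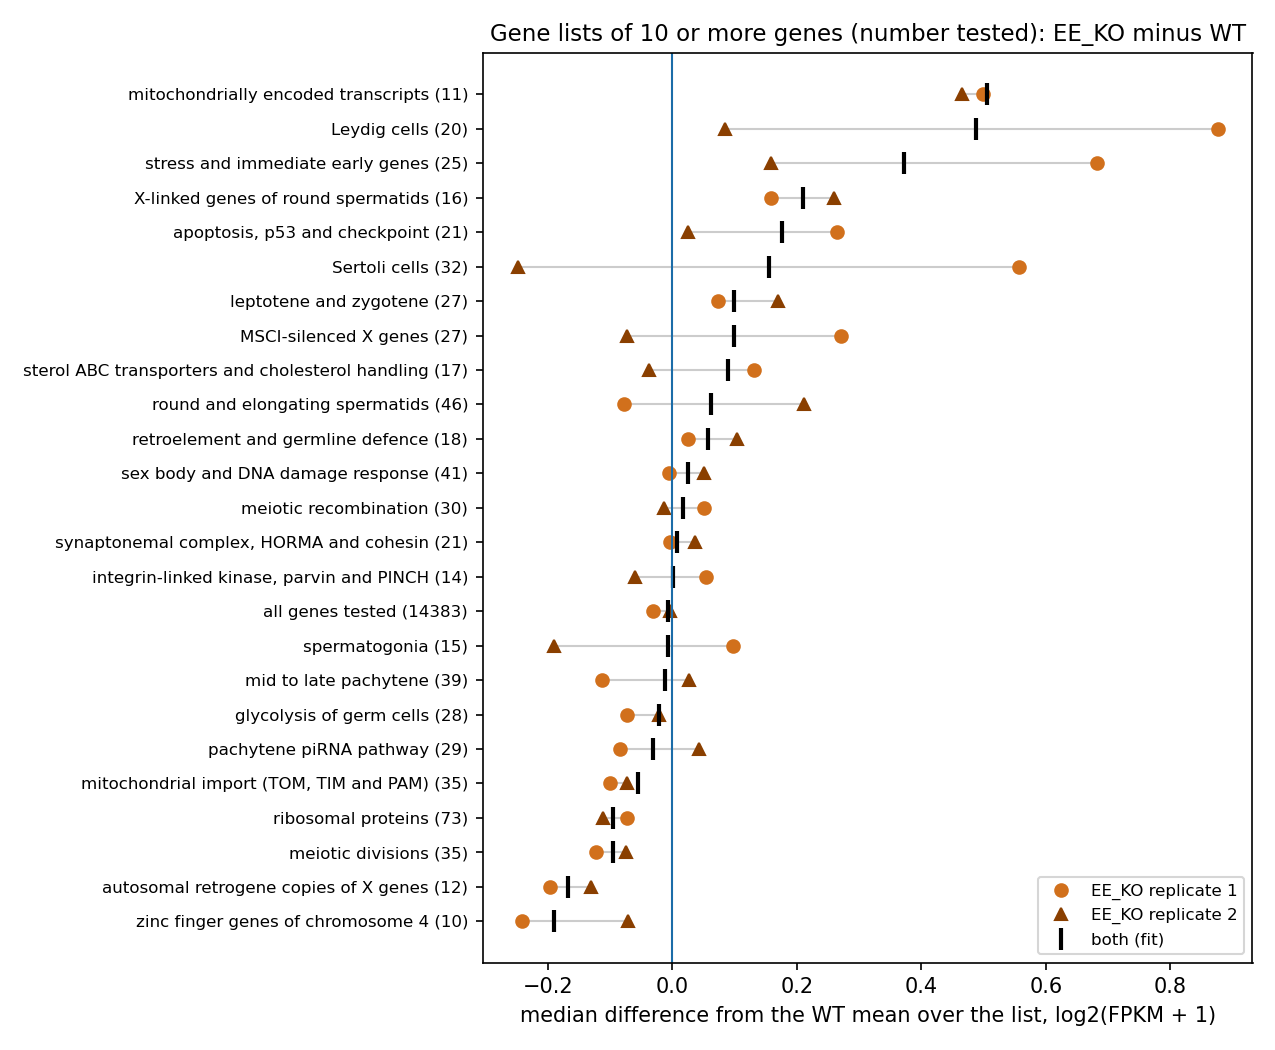
Median difference from the WT mean (x axis, log2(FPKM + 1)) over the tested genes of each list with 10 or more genes (y axis), for EE_KO replicate 1 (circles), EE_KO replicate 2 (triangles) and both in the fit (bars). The Leydig, Sertoli and stress lists lie higher in replicate 1 than in replicate 2, and the mitochondrially encoded transcripts lie near 0.5 in both.

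Sertoli and Leydig markers were higher in EE_KO replicate 1 than in the other WT and EE_KO libraries. The 35 Sertoli markers, of which none was at 0 in any library, summed to 725 FPKM in each WT library, 1132 FPKM in EE_KO replicate 1 and 598 FPKM in EE_KO replicate 2. The 25 Leydig markers, also with none at 0, summed to 141 and 219 FPKM in WT and to 338 and 179 FPKM in EE_KO. In KO the sums were 9479 and 8903 FPKM for Sertoli and 4084 and 3664 FPKM for Leydig markers. Over 32 tested Sertoli markers, 28 above and 4 below WT, the median difference was 0.16. It was 0.56 in EE_KO replicate 1 and -0.25 in EE_KO replicate 2. Over 20 tested Leydig markers, 15 above and 5 below WT, the median difference was 0.49. It was 0.88 in EE_KO replicate 1 and 0.08 in EE_KO replicate 2. Star, which carries cholesterol into Leydig cell mitochondria, was at 5.21 and 6.09 FPKM in WT and at 11.6 and 7.10 FPKM in EE_KO (0.61 ± 0.21, adjusted p = 0.48, limma). Markers of peritubular, endothelial and blood cells (24, with 2 or 3 at 0 per library of WT and EE_KO) summed to 8.80 to 14.3 FPKM over the 4 libraries, highest in EE_KO replicate 1. Those of macrophages and other leukocytes (24) summed to 37.1 and 59.3 FPKM in WT and to 41.7 and 45.3 FPKM in EE_KO, so EE_KO lay between the WT libraries.

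Stress and immediate early genes were also higher in EE_KO replicate 1. Of 25 tested, 22 were above WT and none was called. Among the 25, 8 were higher at an unadjusted limma p below 0.05, beside 2.49% of all genes tested. Counts without overlap were 11 higher and 1 lower, beside 15.8% and 21.4% of all genes tested. Their median was 0.37, or 0.68 in EE_KO replicate 1 and 0.16 in EE_KO replicate 2. Egr1, a zinc finger transcription factor induced within minutes of stimulation, was at 12.2 and 15.2 FPKM in WT, 35.3 and 18.3 FPKM in EE_KO, and 417 and 328 FPKM in KO. It was not among the members picked by the naming rule. Dnajb1 and Hspa8, the 2 most abundant members, differed from WT by -0.24 to -0.02 and by 0.15 to 0.48 over the alternative settings. Klf2 was at 5.88 and 6.94 FPKM in WT and at 10.8 and 8.25 FPKM in EE_KO (0.50 ± 0.15, adjusted p = 0.413, limma). The part of the somatic cells in these values was not tested. The 21 apoptosis, p53 and checkpoint genes had a median of 0.18, and Pmaip1, the p53 target Noxa, was at 1.73 and 3.07 FPKM in WT and at 4.03 and 5.38 FPKM in EE_KO.

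Transcripts encoded by the mitochondrial genome were above WT in both EE_KO libraries. All 11 tested were above the WT mean and 10 were higher without overlap, beside 15.8% of all genes tested. Their median was 0.51 (0.50 in EE_KO replicate 1 and 0.46 in EE_KO replicate 2). The median gene stood at 142% of WT, beside 400% in KO. mt-Co1, a cytochrome oxidase subunit, was at 2778 and 2520 FPKM in WT, 3939 and 3596 FPKM in EE_KO, and 12867 and 7428 FPKM in KO. mt-Nd6, a complex I subunit, was at 249 and 245 FPKM in WT and at 350 and 394 FPKM in EE_KO (0.58 ± 0.13, adjusted p = 0.232, limma). None of the 11 was called, and they are processed from shared precursor transcripts, so they are not independent genes.

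Ribosomal protein genes tended the other way. Of 73 tested, 53 were below WT and 20 above. Without overlap 38 were lower and 13 higher, beside 21.4% and 15.8% of all genes tested. At an unadjusted limma p below 0.05, 15 were lower and 2 higher, beside 5.56% and 2.49% of all genes, and none was called. The median was -0.09, or 93.5% of WT. Rps29 was at 111 and 100.2 FPKM in WT and at 63.1 and 59.6 FPKM in EE_KO (-0.77 ± 0.11, adjusted p = 0.139, limma), and Rps28 was at 26.1 and 24.1 FPKM in WT and at 15.95 and 16.34 FPKM in EE_KO. The abundant Rplp0 was at 537 and 509 FPKM in WT and at 497 and 527 FPKM in EE_KO. Ribosomal protein genes have many processed copies, so their read counts may be split.

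Differences by position were described over windows, and 2 stretches of gene families were singled out after the values were seen. They hold a small part of the residual differences. Of 517 windows of 3 Mb with at least 10 tested genes, the lowest median, -0.54, was on chromosome 5 from 15 to 18 Mb. In it 9 of 14 genes were lower without overlap, beside 21.4% of all genes tested, and none higher. Of the 14, 8 had an unadjusted limma p below 0.05, beside 8.05% of all genes. The next highest shares of genes at that p were 9 of 20 on chromosome 4 from 144 to 147 Mb, 7 of 18 on chromosome 2 from 168 to 171 Mb, 6 of 16 on chromosome 6 from 51 to 54 Mb and 10 of 27 on chromosome 4 from 138 to 141 Mb. In the chromosome 5 window the Speer genes, a rodent family expressed in testis, and related gene models lie side by side. Speer4d was at 3.90 and 3.31 FPKM in WT, 1.35 and 1.22 FPKM in EE_KO, and 0.0422 and 0.175 FPKM in KO, and Gm30613 was at 3.35 and 3.74 FPKM in WT and at 0.80 and 0.13 FPKM in EE_KO (-1.67 ± 0.24, adjusted p = 0.143, limma). In contrast Speer4f1 and Speer4f2, farther along the window, had differences of 0.04 and 0.03.

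The second lowest median, -0.42 over 20 genes, was on chromosome 4 from 144 to 147 Mb, around Zfp990. From 145 to 148 Mb 33 genes were tested, of which 22 were below WT. Of the 33, 17 were lower and 5 higher without overlap, beside 21.4% and 15.8% of all genes tested. At an unadjusted limma p below 0.05 there were 10 lower and 1 higher, beside 5.56% and 2.49% of all genes. Of 9 genes there named Zfp or Znf, 8 were below WT and Zfp990 was the 1 above. Zfp993 was at 11.4 and 9.33 FPKM in WT, 2.89 and 4.61 FPKM in EE_KO, and 1.96 and 1.13 FPKM in KO. Zfp992 was at 15.4 and 10.8 FPKM in WT and at 6.41 and 6.12 FPKM in EE_KO (-0.93 ± 0.20, adjusted p = 0.228, limma). Where they align, Zfp990 shares 91.3% of bases with Zfp993 and 97.3% with Gm21411, so reads may be split within the family. These alignments cover 31.7% and 16.3% of the Zfp990 transcript. Zfp534, Zfp988 and Zfp987 align over 72.3%, 69.8% and 69.8% of it, and were at 0.371 FPKM or less in every library. Gm21411, under the level filter, was at 0 in both WT libraries and at 1.73 and 1.25 FPKM in EE_KO, in the direction of Zfp990. Over the 100 genes with the smallest p, 81 were lower and 19 higher, and 15 were on chromosome 4, which holds 6.34% of tested genes, but only 2 of those lay in the 3 Mb around Zfp990.

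**Figure D5:**
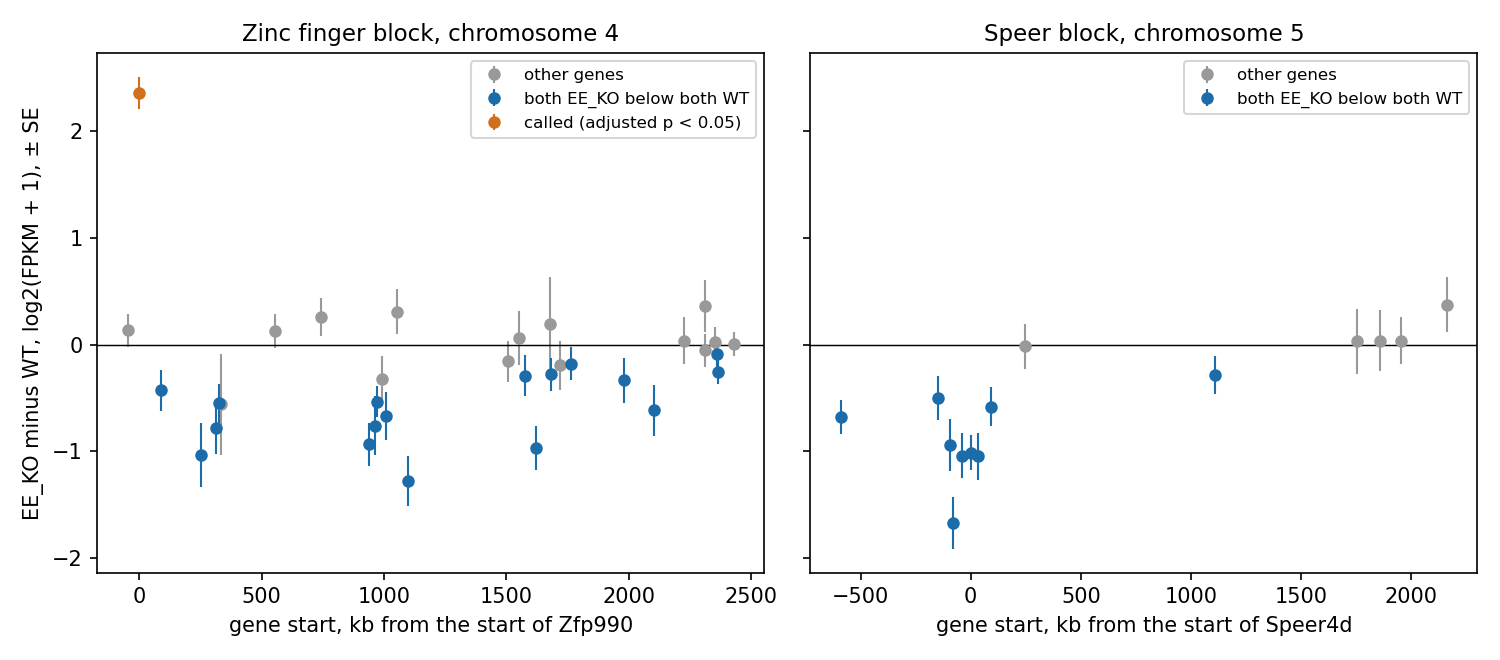
Difference between EE_KO and WT (y axis, log2(FPKM + 1), bars are SE) for each tested gene by distance of its start from that of Zfp990 on chromosome 4 (left) and Speer4d on chromosome 5 (right), in kb. Zfp990 is the single called gene, at 2.36, and 17 of 33 genes in the left panel and 9 of 14 in the right have both EE_KO libraries below both WT libraries.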

How the data were processed

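RNA was sequenced from STA-PUT purified pachytene cells, with 3 groups of 2 libraries. Per the labels' protocols, 1.3 µg of RNA entered each SMARTer library. The authors deposited FPKM per gene, per the file headers. GRCm38 and mm10 are named in the submitters' processing notes; no source used here gives the aligner, counter, annotation or strand. GENCODE M21 gave symbols, types, positions and exon-union lengths for 54495 of the 54532 genes. Deposited FPKM times length was a whole number in 96.8 to 97.0% of nonzero values (tolerance 0.01), and these recovered reads served for depth and for voom only.

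The model was limma 3.58.1 under R 4.3.3, with a mean per group, a mean-variance trend and no block, fitted to log2(FPKM + 1) of all 6 libraries for genes with a mean of at least 1 FPKM in WT and EE_KO; calls are Benjamini-Hochberg adjusted p below 0.05 over 14383 genes. The added 1 FPKM understates fold changes of low genes. Copies sharing at least 90% of bases were found with blastn 2.17.0. On data simulated for EE_KO against WT over 14383 genes, each change was planted in 50 genes. The fit recovered 78% of 2-fold rises, 70% of 2-fold falls and all 4-fold changes, with 10 false calls among 14183 unchanged genes. These rates describe the planted genes and the spread of the simulated data, and were not split by level. Whether they hold for all genes tested, or at the replicate spread of these libraries, was not tested. The rates therefore give no recovery or error rate for the called genes with a group mean under 1 FPKM. Named genes were the MAPS gene, called genes and their expressed neighbours, the 10 largest uncalled differences in each direction at an unadjusted p below 0.01 without overlap (clone names passed over), the smallest p and the 2 most abundant members of each list, the 10 most abundant genes and 3 X genes; Nudc, Hdac1, Mrs2, Gm26715, Gm26806, Gm48168, Gt(ROSA)26Sor, Pttg1, Rps28, Gm30613, Speer4f1 and Speer4f2 were added after their values were seen. Egr1 and Ccdc36 were also named outside that rule. Members, lists and windows were chosen with earlier results of these data known. Alternatives were other pseudocounts, filters, scalings, fits and left-out libraries. Python 3.11.15, pandas 2.3.3, numpy 2.4.6 and matplotlib 3.10.9 were used.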

Additional observations from a re-analysis of the deposited data

How the results depend on the processing

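The number of genes called was 8. It was 0 with no filter on low values (2470 genes at an unadjusted p below 0.05), 0 with the WT and EE_KO libraries alone (1027), 4 at a minimum of 5 FPKM and 5 on TPM. Leaving out each library gave 0 to 17 calls. It was 17 without EE_KO replicate 1, 3 without EE_KO replicate 2, 4 without WT replicate 1, and 0 without WT replicate 2 or either KO library (1768, 1032 and 1028 genes at an unadjusted p below 0.05). A left-out library leaves 1 in its group, assumed to vary like the others. The replicate block left 7 calls, without Klb. Replicate deviations correlated by 0.06 between WT and EE_KO, so the numbers pair no libraries. In 137 refits of the 8 genes, 68 kept the call and none changed direction; the cause was not tested. The share of genes with an interval inside 2-fold, 93.3%, was 81.7% on TPM, 96.3% at 5 FPKM, 75.4% and 88.0% at pseudocounts of 0.1 and 0.5, 90.2% with short RNA genes kept and 75.3% with voom, and 86.2% to 91.7% without a library. The mean WT to EE_KO distance, 0.177, was 0.210 at a pseudocount of 0.1 and 0.117 without the filter, and 0.156 to 0.198 without a library. Of the list medians given above, those of the meiotic division, spermatid, X-linked spermatid, Sertoli, MSCI X, piRNA, recombination, synaptonemal, sex body, spermatogonial, sterol, parvin and pachytene genes changed sign when a library was left out, and those of the mitochondrially encoded, ribosomal, retrogene, Leydig and stress lists did not.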

Other observations

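Long non-coding genes lay lower than protein-coding genes. Of 1008 lincRNA genes tested 281 were lower and 106 higher without overlap, with a median of -0.10, and of 679 antisense genes 173 were lower and 84 higher, with a median of -0.09. Among 11024 protein-coding genes 2245 were lower and 1857 higher, with a median of 0.00. Over all genes tested 21.4% were lower and 15.8% higher without overlap.

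Within protein-coding genes over 500 bases the difference moved with exon-union length. The median was -0.06 for 429 genes of 501 to 1000 bases and 0.04 for 1746 genes over 8000 bases. The 71 genes of up to 500 bases did not follow this order, with a median of -0.02 and 19.7% lower without overlap. Lower without overlap were 29.2% of genes of 1001 to 2000 bases and 11.6% of those over 8000 bases, and higher without overlap were 14.1% and 23.1%. Over all genes tested the lower share was 21.4% and the higher share 15.8%. The WT libraries also differed by length: WT replicate 2 minus WT replicate 1 was 0.16 at 501 to 1000 bases and -0.06 over 8000 bases. Ribosomal protein genes and Tomm7, which has 1125 bases, are among the shorter genes, and the part of length in their values was not tested.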
